A study of Homo sapiens with 6 samples.

Results

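The aldehyde dehydrogenase (ALDH) genes were followed in cells labelled SW1990, an established cell line of human pancreatic ductal adenocarcinoma, after exposure to EPZ-5676, a small molecule that inhibits the histone methyltransferase DOT1L. The 10 genes ALDH3A1, ALDH3A2, ALDH3B1, ALDH3B2, ALDH1A1, ALDH1A3, ALDH1B1, ALDH2, ALDH7A1 and ALDH18A1 were selected by gene name from the 58735 genes of the deposited count table, with earlier results of the same samples known. The level of ALDH3A1 in EPZ and NC cells was among those earlier results. The differences of the 10 genes between EPZ and NC are therefore a description, and threshold calls on them are no test. The 9 other family genes ALDH1A2, ALDH1L1, ALDH1L2, ALDH4A1, ALDH5A1, ALDH6A1, ALDH8A1, ALDH9A1 and ALDH16A1 are given beside them, with tests.

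EPZ denotes the 3 libraries from SW1990 cells given 5 µM EPZ-5676, and NC the 3 control libraries. The characteristics call the controls untreated, whereas the treatment protocol says that they received DMSO, the solvent, in the same volume. How long the cells were exposed is not stated in the sources used here. Nothing in the labels says that the replicates came from separate cultures, so the errors below measure the spread between these libraries, which may be technical. Polyadenylated RNA was sequenced, and 33970420 to 39749648 reads per EPZ library and 35042563 to 38132352 per NC library were counted in genes. Of the markers of pancreatic duct epithelium, the keratin genes KRT7, KRT8 and KRT18 lay between 1360 and 3970 CPM in EPZ and between 1140 and 2830 CPM in NC libraries (CPM, the read count relative to the library size after scaling by trimmed mean of M values). CLDN4 and MUC1 were also above 1 CPM in all 6 libraries, while KRT19 stayed under 1 CPM in all 6, EPCAM was at 0.656 to 1.37 CPM in EPZ and 1.43 to 2.59 CPM in NC, and CDH1, the gene of the epithelial cadherin, had 0 reads. The duct label therefore rests on 5 of 8 markers. By the same measure, 4 of 5 fibroblast markers, all but COL1A2, were above 1 CPM in all 6 libraries. So were 1 of 5 leukocyte markers and 0 of 4 endothelial markers. KRT19 and CDH1 are usually expressed in pancreatic duct carcinoma cells, so these levels are unusual for the labelled line, whose identity was not tested, and SW1990 stands here as the labels give it. The summed CPM of the duct markers was 6654 to 8476 in EPZ and 5455 to 6265 in NC. The 4 acinar markers had 0 reads, and the summed CPM of the leukocyte, endothelial and fibroblast markers was 3.85 to 5.82, 1.37 to 3.25 and 93.3 to 99.6 in EPZ, against 2.24 to 8.10, 1.64 to 3.18 and 83.6 to 93.5 in NC. The part of these marker shifts in the results was not tested. In bulk RNA, fewer cells of a type and less RNA per cell cannot be told apart.

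Aldehyde dehydrogenases oxidise reactive aldehydes to acids, with NAD or NADP as the electron acceptor. The aldehydes arise from ethanol, from lipid peroxidation, from retinol and from amino acids, and the members differ in substrate and in the compartment they work in. The retinaldehyde dehydrogenases of subfamily 1A make retinoic acid, and high ALDH activity is widely used to sort stem-like cells from carcinomas, the pancreas included.

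The genes covered a wide range of levels in both groups, and most of the ALDH mRNA was not that of the retinaldehyde enzymes. Per kilobase of gene length, ALDH18A1 was the highest, at 47.6 ± 3.39 CPM per kb in EPZ and 48.3 ± 0.31 CPM per kb in NC (mean ± SD, n = 3 each). ALDH18A1 makes pyrroline-5-carboxylate from glutamate, the entry into proline and ornithine synthesis. ALDH3B1, whose lipid-anchored product oxidises aldehydes from membrane lipids, followed at 21.2 ± 1.77 CPM per kb in EPZ and 17.0 ± 1.18 CPM per kb in NC. The mitochondrial ALDH1B1, at 9.52 ± 0.21 and 10.2 ± 0.91 CPM per kb in EPZ and NC, and ALDH3A2, at 6.19 ± 0.54 and 8.01 ± 1.14 CPM per kb, came next, and their NC ranges overlapped. ALDH7A1 stood at 3.26 ± 0.10 CPM per kb in EPZ and 3.53 ± 0.32 CPM per kb in NC. ALDH2 (0.846 ± 0.287 CPM per kb in NC) and ALDH1A3 (0.535 ± 0.180 CPM per kb in NC) also overlapped in range, and ALDH3A1 was below both in NC cells, at 0.320 ± 0.091 CPM per kb. In EPZ cells, ALDH3A1 lay between 1.00 and 1.27 CPM per kb, above the 0.513 to 0.573 CPM per kb of ALDH1A3 and overlapping the 1.06 to 1.60 CPM per kb of ALDH2. The table's gene length for ALDH7A1, 17970 bases, is far above its longest annotated transcript of 4964 bases. Per kilobase of longest transcript, the NC order changed among ALDH3A2 (13.2), ALDH7A1 (12.8) and ALDH1B1 (10.5 CPM per kb), and the other ranks were the same.

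**Figure D1:**
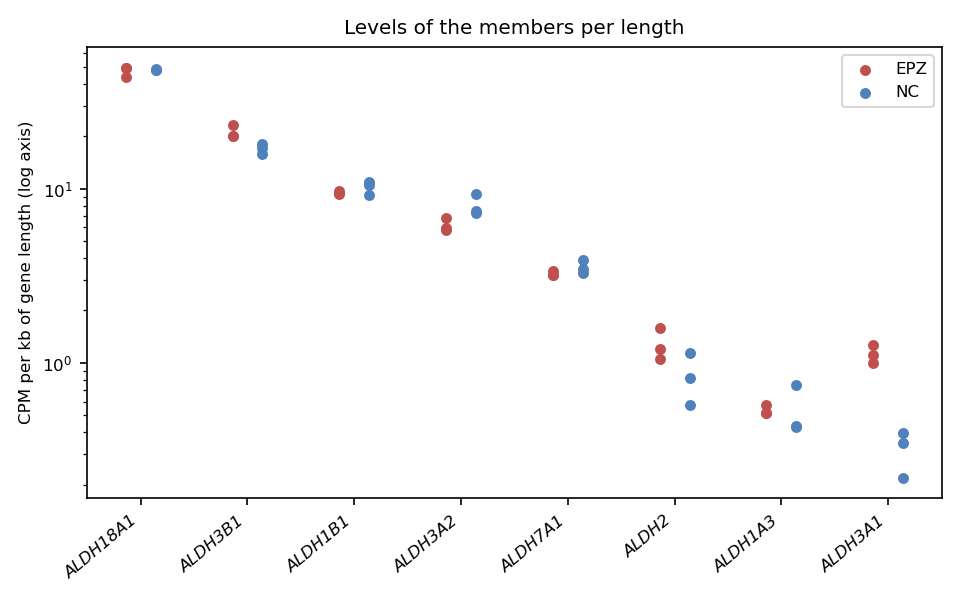
CPM per kilobase of gene length on a log axis for the 8 members with enough reads for testing, ordered by the NC mean, with 1 point per library (3 EPZ, left, and 3 NC, right). ALDH18A1 lies between 43.7 and 49.7 CPM per kb in EPZ and between 48.0 and 48.6 in NC, and ALDH3A1 is the lowest of the 8 in NC and not in EPZ.

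Both genes with the least RNA were not tested. ALDH1A1 (chromosome 9, 72900662 to 73080442, minus strand), a cytosolic retinaldehyde dehydrogenase and the isoform most often linked to the ALDH activity of stem-like cells, had 0 reads in all 3 EPZ and all 3 NC libraries. A count of 0 allows up to 3 reads, or 0.0759 to 0.0966 CPM per EPZ library and 0.0754 to 0.0859 CPM per NC library, which covers counting error only. ALDH3B2 (chromosome 11, 67662162 to 67681200, minus strand), a close relative of ALDH3B1, had 0, 2 and 0 reads in EPZ libraries and 0, 2 and 5 in NC libraries. It was detected in some libraries of both groups at no more than 0.134 CPM.

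The 250 bases before the annotated start are shown for the extremes of level and for a weakly expressed member with the densest CG content, ALDH18A1, ALDH1A1 and ALDH1A3. Capitals mark CG dinucleotides, which are the sites of DNA methylation in promoters. The sequences and starts are those of RefSeq on GRCh38.p14, which had entries for 7 of the 10 members, in 9 windows. ALDH3A1, ALDH3B2 and ALDH2 were not among them. The windows of ALDH1A1 and ALDH1A3 lie inside the intervals of the counted genes, so these starts are not the outer ends of those intervals.
ALDH18A1, chr10:95656712-95656961, minus strand: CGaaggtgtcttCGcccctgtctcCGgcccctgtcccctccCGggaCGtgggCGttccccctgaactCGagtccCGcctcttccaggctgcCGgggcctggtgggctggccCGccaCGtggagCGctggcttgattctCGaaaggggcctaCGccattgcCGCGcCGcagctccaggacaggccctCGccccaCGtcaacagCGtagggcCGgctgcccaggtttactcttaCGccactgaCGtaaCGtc
ALDH1A3, chr15:100879581-100879830, plus strand: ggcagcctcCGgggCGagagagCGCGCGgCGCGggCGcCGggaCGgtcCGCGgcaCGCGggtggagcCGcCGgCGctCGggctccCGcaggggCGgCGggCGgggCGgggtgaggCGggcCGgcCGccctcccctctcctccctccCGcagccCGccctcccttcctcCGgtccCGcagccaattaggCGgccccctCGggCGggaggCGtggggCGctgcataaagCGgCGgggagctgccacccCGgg
ALDH1A1, chr9:72953054-72953303, minus strand: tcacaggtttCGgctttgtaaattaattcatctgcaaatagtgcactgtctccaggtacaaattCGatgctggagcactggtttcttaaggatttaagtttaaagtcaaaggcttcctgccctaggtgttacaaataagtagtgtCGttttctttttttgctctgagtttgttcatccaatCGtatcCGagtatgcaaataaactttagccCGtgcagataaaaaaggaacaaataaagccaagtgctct
The window of ALDH18A1, the highest member, held 24 CG, a count reached by 23.7% of the 35116 promoters of the table. That of ALDH1A3 held 38 CG, reached by 3.28% of promoters, beside a level of 3.09 ± 0.19 CPM in EPZ and 3.09 ± 1.04 CPM in NC (mean ± SD, n = 3 each). That of ALDH1A1, with 0 reads, held 6 CG, reached by 61.9% of promoters, and 38.4% G or C. The 6 other windows held between 3 and 23 CG, and both windows of ALDH3B1, the second highest member, held 11 or fewer. The letters TATAAA, searched on both strands, were in 0 of the 9 windows and in 10.7% of all promoters. CCAAT, on both strands, was in those of ALDH1A1, ALDH1A3, ALDH1B1 and ALDH7A1 and in 1 of the windows of ALDH3A2, against 32.0% of all promoters. The files hold no measure of methylation or binding.

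The largest difference among the 8 members tested was that of ALDH3A1 (ENSG00000108602; chromosome 17, 19737984 to 19748943, minus strand, GRCh38). ALDH3A1 is a cytosolic enzyme that oxidises aromatic and lipid-derived aldehydes, is abundant in the cornea, and inactivates the active metabolites of cyclophosphamide. It had 3.93, 4.99 and 4.35 CPM in EPZ libraries, against 1.36, 1.55 and 0.858 CPM in NC libraries. Every EPZ library was above every NC library, and the lowest EPZ value was more than 2 times the highest NC value. The means were 4.42 ± 0.53 CPM in EPZ and 1.25 ± 0.36 CPM in NC (SD, n = 3 each), from 469 and 140 reads, a log2 fold change of 1.82 ± 0.30 (SE) or 3.52-fold. ALDH3A1 remained a minor species, at 0.806% to 1.05% of the summed CPM of the 10 members in EPZ and 0.191% to 0.340% in NC. The sum itself was 442 to 487 CPM in EPZ and 448 to 462 CPM in NC.

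**Figure D2:**
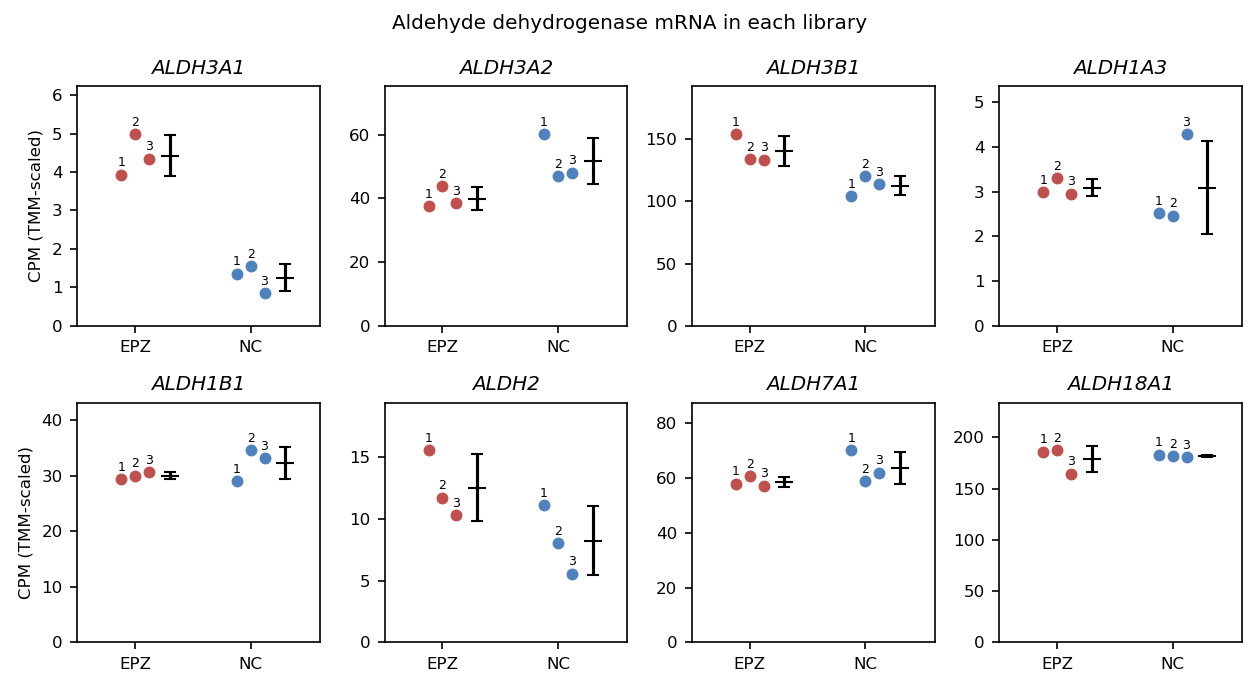
CPM of each tested member in each library, with linear axes from 0; points are single libraries numbered by replicate, EPZ left and NC right, and the bars beside them give the mean ± SD (n = 3). The groups are apart for ALDH3A1, ALDH3A2 and ALDH3B1 and overlap for the other members.

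ALDH3A2 (chromosome 17, 19648136 to 19677598, plus strand) lies 60.4 kb from ALDH3A1 with no other tested gene between them. It encodes the membrane-bound fatty aldehyde dehydrogenase, which is deficient in Sjögren-Larsson syndrome. It had 37.5, 44.0 and 38.4 CPM in EPZ libraries, against 60.2, 47.0 and 48.1 CPM in NC libraries. The groups did not overlap, but the gap between EPZ replicate 2 and NC replicate 2 was small. The log2 fold change was -0.37 ± 0.12, opposite in sign to that of ALDH3A1. On the other flank of ALDH3A1, the autophagy kinase gene ULK2 had a log2 fold change of 0.49 ± 0.37 (edgeR adjusted p = 0.333). Beyond ALDH3A2, the drug transporter gene SLC47A1 rose, with a log2 fold change of 0.60 ± 0.21 (edgeR adjusted p = 0.0306), a call lost without EPZ replicate 2, EPZ replicate 3 or NC replicate 1. The gene antisense to ALDH3A1, AC005722.3, had 0 reads in all libraries, and that antisense to ALDH3A2, AC115989.1, had 2 reads in EPZ and 0 in NC.

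ALDH3B1 (chromosome 11, 68008578 to 68029282, plus strand) had 154, 134 and 133.5 CPM in EPZ libraries, against 104, 120.0 and 114 CPM in NC libraries. The groups did not overlap, and the log2 fold change was 0.32 ± 0.10, a 1.25-fold difference. The antisense gene AC004923.4, which overlaps it and runs past its end, had 86 reads in EPZ and 84 in NC, beside 14769 and 12588 for ALDH3B1. ALDH3B2, 327.4 kb away on the same chromosome, is close to it in sequence, and the sources used here do not say how reads matching both genes were counted, so both counts are uncertain.

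In subfamily 1, ALDH1A3 (chromosome 15, 100877714 to 100916626, plus strand), the member of subfamily 1A with enough reads for testing, had 2.99, 3.31 and 2.96 CPM in EPZ libraries, against 2.52, 2.46 and 4.29 CPM in NC libraries. NC replicate 3 was above, and the other NC libraries below, all EPZ libraries, and the log2 fold change was -0.0011 ± 0.29. This interval leaves room for a difference of either sign. Antisense genes overlap ALDH1A3, of which AC015712.2 had 39 reads in EPZ and 40 in NC. ALDH1B1 (chromosome 9, 38392664 to 38398661, plus strand), which oxidises acetaldehyde in mitochondria and marks progenitors of the embryonic mouse pancreas, had 29.4, 30.01 and 30.7 CPM in EPZ libraries, against 29.1, 34.6 and 33.2 CPM in NC libraries. The groups overlapped, and the log2 fold change was -0.10 ± 0.13.

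ALDH2 (chromosome 12, 111766887 to 111817529, plus strand), the main mitochondrial enzyme of acetaldehyde removal after ethanol intake, had 15.5, 11.7 and 10.3 CPM in EPZ libraries, against 11.1, 8.01 and 5.55 CPM in NC libraries. The groups overlapped, since NC replicate 1 was above EPZ replicate 3. The log2 fold change was 0.60 ± 0.22, or 1.52-fold, and it was 0.42 without EPZ replicate 1 and 0.38 without NC replicate 3.

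The 2 amino acid enzymes among the members did not stand apart between the groups. ALDH7A1 (chromosome 5, 126531200 to 126595418, minus strand), which acts in lysine breakdown and is deficient in pyridoxine-dependent epilepsy, had 57.8, 60.5 and 57.2 CPM in EPZ libraries, against 70.0, 58.8 and 61.8 CPM in NC libraries. The log2 fold change was -0.12 ± 0.11. Its pseudogene ALDH7A1P1 had 9 reads in EPZ and 26 in NC, and 3 further pseudogenes had 0. ALDH18A1 (chromosome 10, 95605929 to 95656706, minus strand) had 186, 187 and 164.5 CPM in EPZ libraries, against 183, 182 and 181 CPM in NC libraries, a log2 fold change of -0.022 ± 0.097.

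Of the 10 members, 8 passed the filter on low counts. In the edgeR fit across all 15496 genes tested, 3 of these 8 (ALDH3A1, ALDH3B1 and ALDH2) were past the threshold as higher in EPZ and 1 (ALDH3A2) as lower, at an adjusted p under 0.05. Over all genes tested, 15.0% were higher and 18.7% lower. The groups did not overlap for 3 of the 8 members, against 46.0% of all genes tested. Nothing is read from these shares or from the calls of single members, since the contrast is the one the members were chosen on. The same holds for the calls with a library left out. ALDH3B1 was no longer past the threshold without EPZ replicate 1, NC replicate 1 or NC replicate 3, ALDH3A2 without EPZ replicate 1, EPZ replicate 3 or NC replicate 1, and ALDH2 without EPZ replicate 1, EPZ replicate 2, NC replicate 2 or NC replicate 3. The median log2 fold change was -0.012 over the 8 members and -0.052 over all genes tested.

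Fold changes in these libraries followed the GC content of the transcripts, and the members are given beside genes of like GC. Across GC deciles of all tested genes, the median log2 fold change was -0.58 in the lowest and 0.43 in the highest. ALDH3A1 and ALDH3B1 both had 59.5% GC in their longest transcript, in the decile with a median of 0.35. The difference of ALDH3B1 (0.32) was close to that median, and that of ALDH3A1 (1.82) was above it. ALDH2, at 47.6% GC, was above the median of its decile (-0.15), and ALDH3A2, at 46.7%, was below the same median. After smooth trends with GC content and transcript length were removed from each library, the log2 fold change was 1.49 ± 0.29 for ALDH3A1, 0.75 ± 0.25 for ALDH2, -0.18 ± 0.10 for ALDH3A2 and -0.0100 ± 0.077 for ALDH3B1. Of the 8 members, 1 (ALDH3A1) was then past the threshold as higher and 0 as lower, beside 5.40% and 5.57% of all genes. Nothing is read from these counts and calls either, since the members were chosen on this contrast. With GC content alone corrected, ALDH2 was past the threshold as well, at 0.75. The sign of ALDH3B1, ALDH7A1 (0.12 ± 0.09) and ALDH18A1 (0.031 ± 0.076) turned with this correction, none of them past the threshold after it. Such a correction also removes any effect of the inhibitor that follows GC content or length.

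**Figure D3:**
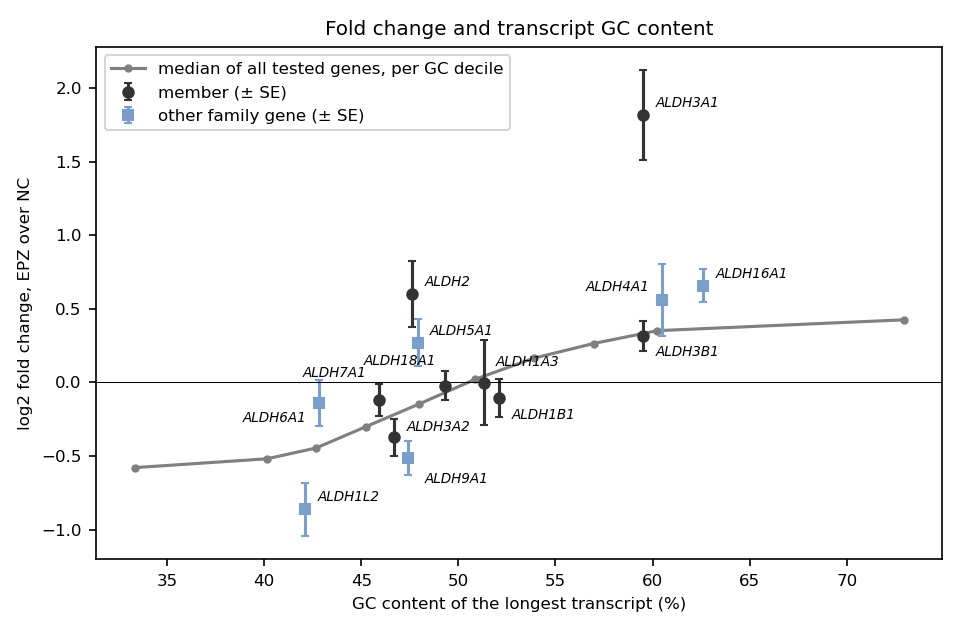
Log2 fold change (EPZ over NC) against GC content of the longest transcript in percent for the 14 tested family genes, with SE bars; the grey line joins the medians of all tested genes in each GC decile. ALDH3A1 lies above the line at 59.5% GC, while ALDH3B1 at the same GC content lies close to it.

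Among the 9 other family genes, 6 were tested, of which 1 rose and 2 fell. ALDH16A1, an unusual member thought to lack catalytic activity in mammals, had 73.7, 60.4 and 70.9 CPM in EPZ libraries, against 41.8, 45.9 and 42.3 CPM in NC libraries. It rose with a log2 fold change of 0.66 ± 0.11 (edgeR adjusted p = 0.000357) and every EPZ library was above every NC library. After the GC and length correction it was at 0.26 ± 0.09 and no longer past the threshold (edgeR adjusted p = 0.0659). ALDH1L2, the mitochondrial 10-formyltetrahydrofolate dehydrogenase, had 9.59, 8.92 and 9.79 CPM in EPZ libraries, against 19.0, 12.7 and 19.7 CPM in NC libraries. It fell with a log2 fold change of -0.86 ± 0.18 (edgeR adjusted p = 0.00148), and was at -0.40 ± 0.15 after the correction, where it did not pass (edgeR adjusted p = 0.0815). ALDH9A1, which acts in carnitine synthesis, had 38.4, 33.3 and 35.3 CPM in EPZ libraries, against 54.7, 50.4 and 47.5 CPM in NC libraries. It fell with a log2 fold change of -0.51 ± 0.12 (edgeR adjusted p = 0.00263), and still passed after the correction (-0.36 ± 0.10, edgeR adjusted p = 0.0199). With the correction, that call was lost without EPZ replicate 2, EPZ replicate 3 or NC replicate 1 (edgeR adjusted p = 0.105, 0.0745 and 0.0678). The mitochondrial ALDH4A1 (0.56 ± 0.25), ALDH5A1 (0.27 ± 0.16) and ALDH6A1 (-0.14 ± 0.15), enzymes of proline, GABA and valine breakdown, did not pass (edgeR adjusted p = 0.0827, 0.206 and 0.522). ALDH1A2, ALDH1L1 and ALDH8A1 had at most 4 reads in any library and were not tested.

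**Figure D4:**
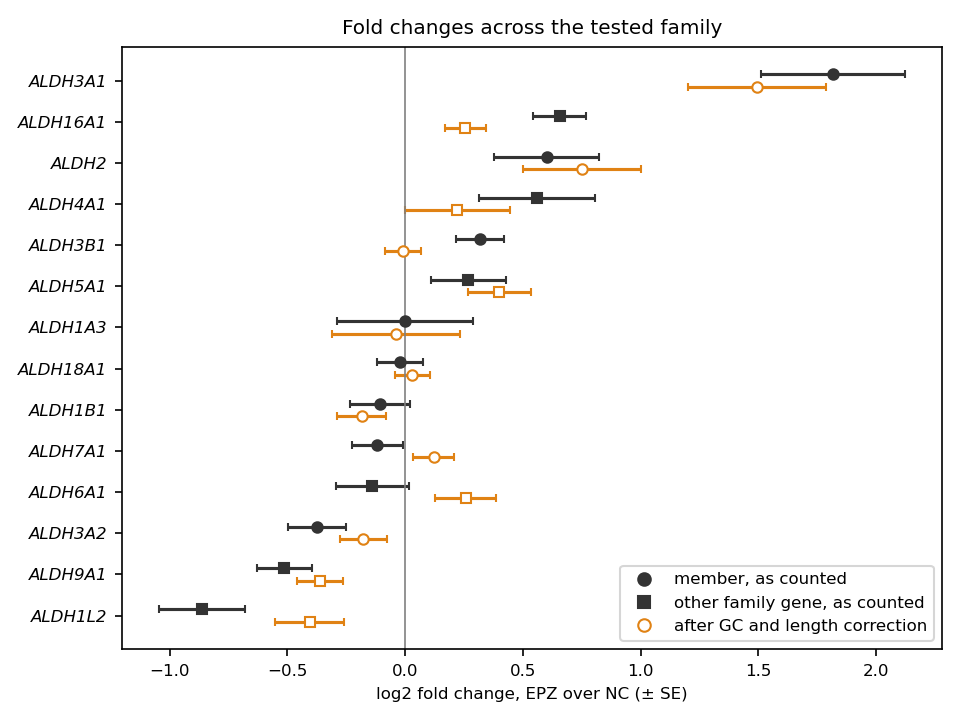
Log2 fold changes (EPZ over NC) with SE bars for the 14 tested family genes as counted (filled) and after the GC and length correction (open); circles are members and squares the other family genes. ALDH3A1 is at 1.82 and 1.49, the other 13 genes lie between -0.86 and 0.75 in both.

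The nearest tested gene on each side of a member, at any distance, was read in the same fit. Of 18 such neighbours, members left out, 3 rose and 3 fell, beside 15.0% and 18.7% of all genes tested. After the correction 2 were higher (SLC47A1 and ZFAND5) and 2 lower (ANXA1 and SHB), beside 5.40% and 5.57% of all genes. ZFAND5, 535427 bases from ALDH1A1, turned sign with the correction, from -0.13 ± 0.11 to 0.40 ± 0.10 (edgeR adjusted p = 0.397 and 0.00983). SHB, 323453 bases from ALDH1B1, turned from 0.10 ± 0.10 to -0.33 ± 0.08 (edgeR adjusted p = 0.465 and 0.0107). With the correction, the call of SLC47A1 held when NC replicate 3 was left out and was lost when any of the other 5 libraries was. The annexin gene ANXA1, 71315 bases from ALDH1A1, fell (-0.91 ± 0.12, edgeR adjusted p = 3.5e-05). After the correction it was at -0.39 ± 0.08 (edgeR adjusted p = 0.00219). Both neighbours of ALDH7A1 fell, the RNA export gene PHAX (-0.70 ± 0.16, edgeR adjusted p = 0.00299) and GRAMD2B (-0.80 ± 0.18, edgeR adjusted p = 0.00221), and neither passed after the correction. NDUFS8, a complex I subunit gene 1335 bases from ALDH3B1, rose (0.42 ± 0.10, edgeR adjusted p = 0.00447), as did NUDT8 beside ALDH3B2 (0.61 ± 0.14, edgeR adjusted p = 0.00250), and neither passed after the correction.

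Pathways that feed or use these enzymes are given from lists drawn up by function, all in the fit across all genes. In that fit 15.0% of all genes tested were higher and 18.7% lower, and 5.40% and 5.57% after the correction. Among genes of retinoid handling and receptors, 8 of 16 tested rose and 1 fell, with a median log2 fold change of 0.33. The 8 that rose had transcripts in GC deciles 8 to 10, where the medians of all tested genes were 0.26 to 0.43. After the correction 1 was higher and 0 lower, with a median of 0.065. The count of rises was 4 without EPZ replicate 1 or NC replicate 3, 5 without EPZ replicate 2, EPZ replicate 3 or NC replicate 1, and 10 without NC replicate 2. The cellular retinoic acid binding protein gene CRABP2 (log2 fold change 0.68 ± 0.14, edgeR adjusted p = 0.00162) and the receptor gene RARG (0.40 ± 0.10, edgeR adjusted p = 0.00536) rose, while RDH11, which reduces retinaldehyde, fell (-0.64 ± 0.13, edgeR adjusted p = 0.00142). Only CRABP2 of the 16 was past the threshold after the correction (0.48, edgeR adjusted p = 0.00690). DHRS3 (0.29 ± 0.11) and RDH13 (0.010 ± 0.209), both reductases of retinaldehyde, did not pass (edgeR adjusted p = 0.0502 and 0.976). The receptor gene RARB and the retinol esterifying LRAT had 0 reads in all libraries.

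The reductases that compete for aldehydes were measured in the list of alcohol dehydrogenases and aldo-keto or carbonyl reductases, where 5 of 13 genes rose and 2 fell, with a median of 0.29. After the correction 3 were higher and 0 lower, with a median of 0.11. Without EPZ replicate 1, EPZ replicate 3 or NC replicate 3, 3 rose, and without NC replicate 1, 0 fell. AKR1C1 (0.62 ± 0.13, edgeR adjusted p = 0.00151), the aldose reductase AKR1B1 (0.43 ± 0.10, edgeR adjusted p = 0.00421) and AKR7A2 (0.49 ± 0.10, edgeR adjusted p = 0.00163) rose. After the correction AKR1C1 (1.04) and AKR1B1 (0.29) still passed, AKR7A2 (0.13) did not, and AKR1C3, at -0.025 ± 0.111 before it, was called higher (0.45, edgeR adjusted p = 0.00591). With the correction, AKR1B1 lost its call without EPZ replicate 1, EPZ replicate 2 or NC replicate 3, and AKR1C3 without EPZ replicate 1. Members of the AKR1C group are near-identical in sequence, so reads may have been split between them. The carbonyl reductase gene CBR1 did not pass (0.057 ± 0.105, edgeR adjusted p = 0.710). The class I, II and IV alcohol dehydrogenase genes ADH1A, ADH1B, ADH1C, ADH4 and ADH7 had 0 reads in all libraries.

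ALDH3A1 belongs to the genes induced through the aryl hydrocarbon receptor in several tissues. Among the genes reported for that receptor and its targets, 2 of 8 tested fell, with a median of -0.027. After the correction 1 was higher and 1 lower, and the median was 0.26. The list genes AHRR (0.49 ± 0.26) and CYP1A1 (0.50 ± 0.65) did not pass before or after the correction. The same held for CYP1B1 (-0.0031 ± 0.208) and AHR (-0.18 ± 0.21). CYP1A1 had only 83 reads in EPZ and 60 in NC, so its not passing says little. AHRR had 5.408, 3.734 and 5.082 CPM in EPZ libraries, against 3.696, 2.69 and 3.725 CPM in NC libraries. The part of the receptor in the difference of ALDH3A1 was not tested. The target gene TIPARP (-0.49 ± 0.15, edgeR adjusted p = 0.0166) and the antioxidant factor gene NFE2L2 (-0.86 ± 0.21, edgeR adjusted p = 0.00358) fell. NFE2L2 passed after the correction too (-0.62, edgeR adjusted p = 0.0268), and TIPARP did not. With the correction, NFE2L2 lost its call without EPZ replicate 1, EPZ replicate 3 or NC replicate 1. Before it, TIPARP also lost its call without EPZ replicate 1, NC replicate 1 or NC replicate 3. The quinone reductase NQO1 (0.081 ± 0.099) and the receptor partner ARNT (-0.050 ± 0.111) did not pass (edgeR adjusted p = 0.562 and 0.762), and NQO1 was called higher after the correction (0.31, edgeR adjusted p = 0.0157), but not without EPZ replicate 1, EPZ replicate 2 or NC replicate 3.

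Around ALDH18A1 and ALDH7A1, in the list of proline, ornithine and lysine metabolism, 1 of 10 genes rose and 2 fell, with a median of 0.025. The next step of proline synthesis is carried out by PYCR1, at 0.13 ± 0.10 (edgeR adjusted p = 0.310), which was called lower after the correction (-0.25, edgeR adjusted p = 0.0255), and by PYCR3, which rose (0.39 ± 0.14, edgeR adjusted p = 0.0314). Ornithine aminotransferase, OAT (-0.38 ± 0.13, edgeR adjusted p = 0.0230), and arginase 2, ARG2 (-0.71 ± 0.25, edgeR adjusted p = 0.0322), fell. GOT2 did not pass (-0.065 ± 0.098, edgeR adjusted p = 0.649). PYCR3 passed in 2 of the 6 fits that left out 1 library, OAT in 2 and ARG2 in 1. After the correction 0 were higher and 2 lower, PYCR1 and the aspartate aminotransferase GOT1, with a list median of -0.068. Both calls were lost without EPZ replicate 1, EPZ replicate 2, EPZ replicate 3 or NC replicate 1.

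Around ALDH3A2, in the list of fatty aldehyde and sphingolipid breakdown, 2 of 10 genes rose and 3 fell, with a median of -0.26, and 0 passed in either direction after the correction (median 0.075). The sphingosine kinase SPHK1 (0.37 ± 0.10, edgeR adjusted p = 0.00988) rose, and the ether lipid enzyme AGPS (-0.67 ± 0.15, edgeR adjusted p = 0.00213) and the phosphatase SGPP1 (-0.66 ± 0.21, edgeR adjusted p = 0.0180) fell. With 1 library left out, 0 to 2 of the list rose and 1 to 5 fell, the fewest rises without EPZ replicate 1, the fewest falls without EPZ replicate 1, NC replicate 1 or NC replicate 3, and the most falls without NC replicate 2. SPHK1 lost its call without EPZ replicate 1, and SGPP1 without EPZ replicate 1, EPZ replicate 3, NC replicate 1 or NC replicate 3. SGPL1, whose product makes the fatty aldehyde that ALDH3A2 oxidises, did not pass (0.023 ± 0.132, edgeR adjusted p = 0.912). ACER3 did not pass either (-0.36 ± 0.14, edgeR adjusted p = 0.0525). Of 4 tested genes of aldehyde oxidases and cytochromes, 1 fell, the aldehyde oxidase AOX1 (-0.82 ± 0.18, edgeR adjusted p = 0.00223), which also passed after the correction (-0.57, edgeR adjusted p = 0.0238). With the correction, that call was lost without EPZ replicate 1, EPZ replicate 2, EPZ replicate 3 or NC replicate 1. Catalase, CAT (-0.19 ± 0.11), and XDH (-0.32 ± 0.28) did not pass (edgeR adjusted p = 0.209 and 0.402).

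Across the 6 libraries, the protein-coding genes with the pattern most like ALDH3A1 were COL6A2, CCDC69, VGF, REEP2 and KLC3. Likeness was the root mean square difference of log2 CPM, each gene centred on its own mean, over the 6 libraries, and 10693 protein-coding genes at a mean log2 CPM of 1 or more were compared. The difference was 0.218 for COL6A2, a collagen VI chain, 0.243 for CCDC69, 0.262 for the secreted neuroendocrine VGF, 0.273 for REEP2 and 0.274 for the kinesin light chain KLC3. COL6A2 had 12.5, 12.4 and 12.6 CPM in EPZ libraries, against 3.57, 5.30 and 3.43 CPM in NC libraries. Being chosen for likeness, these genes differ between EPZ and NC by construction. DOT1L itself had 102, 79.7 and 99.1 CPM in EPZ libraries, against 69.4, 100.5 and 94.0 CPM in NC libraries, a log2 fold change of 0.088 ± 0.129 (edgeR adjusted p = 0.636). It was called lower after the correction (-0.30, edgeR adjusted p = 0.0374), a call that held when NC replicate 1 was left out and was lost when any of the other 5 libraries was. The compound blocks the enzyme, and the mRNA level is therefore no test of the labels.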

How the data were processed

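The 3 EPZ and 3 NC samples were grouped by the sample titles. Per the labels' protocols, mRNA was enriched with oligo(dT) beads and the libraries were strand-marked with dUTP. HISAT2 2.2.1 and GRCh38 are named for the alignment per the submitters' processing notes. The deposited values are raw read counts per gene, not normalized. The sources used here do not name the counter, whether it used strand, or what it did with multiply matching reads, so a gene and its antisense partner may not be separated. Coordinates matched GENCODE release 29, whose longest transcript per gene gave GC content and length.

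Counts were fitted with edgeR 4.0.16 in R 4.3.3: filterByExpr with a minimum count of 10, TMM scaling, robust two-sided quasi-likelihood test, Benjamini-Hochberg adjustment over all 15496 genes tested, threshold 0.05. A standard error is the size of the log2 fold change over the square root of F. Libraries held 33970420 to 39749648 reads. The correction entered natural splines (5 degrees of freedom each) of GC content and log2 length, fitted per library, as an offset. Alternatives were other scalings and filters, protein-coding genes alone, DESeq2 1.42.0, limma-voom (limma 3.58.1), a replicate block and each library left out. The correction with a library left out, and all alternatives for pathway genes and neighbours, were added after seeing the data. The fits were also run on simulated counts. The simulation used a common dispersion and changed few genes, whereas many were called in these data, and no result here rests on it.

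Members, lists and alternatives were chosen with earlier results of these data known. A result of the pathway lists is not reported here, and its list's counts leave it out. Named were all family genes, of each list the 3 called genes with the smallest p and the 2 most expressed others, the 5 genes most like ALDH3A1, neighbours and overlapping genes, and DOT1L. Of the neighbours and overlapping genes only some are named. These, GOT1, AHR, AHRR, CYP1A1, CYP1B1 and the list genes with 0 reads were picked after their values were seen.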

Additional observations from a re-analysis of the deposited data

How the results depend on the processing

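All genes higher numbered 2326, against 837 with the correction, 761 with GC alone and 688 with the correction and the replicate block, and all genes lower 2899, against 863, 729 and 685. With 1 library left out, 1350 to 2780 were higher and 1753 to 3167 lower, and 396 to 857 and 512 to 815 with the correction. The lowest uncorrected counts were 1350 (higher, without EPZ replicate 1) and 1753 (lower, without NC replicate 1), and lower genes numbered 1884 without EPZ replicate 1. Members past the threshold as higher numbered 3, against 1 with the GC and length correction, 2 with GC alone, with the replicate block or with block and correction (ALDH3A1 and ALDH2), 1 to 3 with a library left out (1 without EPZ replicate 1 or NC replicate 3) and 1 to 2 with both; those lower numbered 1, against 0 with either correction, 0 with the replicate block, 0 with block and correction together, and 0 to 1 with a library left out. Other family genes higher numbered 1, against 2 with DESeq2 (ALDH4A1, 0.60), 0 with either correction and 0 with block and correction; those lower numbered 2, against 1 with either correction or with block and correction, 2 with any 1 library left out, and 0 to 2 when that was combined with the correction. ALDH3B1 turned to -0.0100 with the correction, -0.0081 with GC alone and -0.011 with block and correction. It ran from -0.055 to 0.035 when the correction was combined with leaving out a library, against 0.25 to 0.38 in the uncorrected alternatives. Its call was lost without EPZ replicate 1, NC replicate 1 or NC replicate 3, that of ALDH3A2 without EPZ replicate 1, EPZ replicate 3 or NC replicate 1 (down to -0.24), and that of ALDH2 without EPZ replicates 1 or 2 or NC replicates 2 or 3. Among the pathway genes named in the report, those whose sign turned while past the threshold before or after it had, with the GC and length correction, with GC alone, and with block and correction in that order, log2 fold changes as follows: AKR1C3 (0.45, 0.45, 0.45), PYCR1 (-0.25, -0.25, -0.25), PYCR3 (-0.029, -0.019, -0.029), OAT (0.084, 0.093, 0.081) and SPHK1 (-0.099, -0.088, -0.098), and DOT1L was at -0.30 with either correction. With a library left out, corrected or not, AKR1C3 ran from -0.10 to 0.55, PYCR1 from -0.28 to 0.19, PYCR3 from -0.095 to 0.51, OAT from -0.49 to 0.13, SPHK1 from -0.14 to 0.44 and DOT1L from -0.38 to 0.21. The cause was not tested. ALDH3A1 ran from 1.29 to 2.01 over its 23 alternatives. The replicate numbers did not pair the libraries: deviations of same-numbered libraries correlated across genes at -0.111, -0.0927 and 0.0466, and the block left 1677 genes higher and 2219 lower. The 140 NC reads of ALDH3A1 limit the precision of its fold.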
